A study of Mus musculus with 12 samples.

Results

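Cytochrome P450 enzymes are heme proteins of the endoplasmic reticulum and mitochondria that insert oxygen into lipophilic molecules. Families 1, 2 and 3 handle most drugs and foreign compounds, family 4 hydroxylates fatty acids and eicosanoids, and the others act on steroids, sterols and vitamins. The liver holds the largest pool of these enzymes, much of it made by hepatocytes around the central vein, and nuclear receptors and liver transcription factors set how much of each gene is transcribed. Here the RNA of P450 genes was followed in primary mouse hepatocytes with and without Mettl3, the catalytic subunit of the complex that writes N6-methyladenosine in mRNA, while new transcription was blocked.

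Members were chosen by name. A gene was taken where its symbol was Cyp followed by a family number, a subfamily letter and a gene number, leaving out the 5 genes Cyp7a1, Cyp7b1, Cyp8b1, Cyp27a1 and Cyp2c70. This gave 88 of the 48440 genes in the table. Of these, 54 had 10 or more reads in both libraries of at least 1 group and are described below, and 34 did not. All 54 also passed the expression filter used before testing, as did Cyp27b1 and Cyp2b13 from the other 34, so counts of called genes are out of 56. Since a gene could pass either filter through the group in which it was high, these 56 are not the whole family. Of the 34, 9 had no read in any library (Cyp2j13, Cyp2w1, Cyp19a1, Cyp4x1, Cyp2j11, Cyp2c66, Cyp2j7, Cyp4a29 and Cyp2d12), and the highest count in any library was 20 reads.

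The 12 libraries were poly(A) RNA-seq of hepatocytes from C57BL/6J mice, in 6 groups of 2. Control cells were labelled WT, and Mettl3 cKO cells came from Mettl3 flox/flox mice carrying a Cre transgene driven by the Alb enhancer and promoter, which removes exons 2 to 4 of Mettl3 in cells that express albumin. All cells were cultured for 16 h and then received 5 µM actinomycin D, an inhibitor of transcription, for 0, 2 or 6 h, so that the 0 h groups are the levels before the block and the later groups measure what remained. The age and sex of the mice, and whether the 2 libraries of a group came from separate mice or cultures, were not given in the sources used here, so that p-values cover only how far these libraries scatter, and that scatter may be technical.

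Library totals ranged from 16952084 to 20914516 reads. The table counts whole genes, so it cannot check the deletion of exons 2 to 4: Mettl3 itself stood at 33.4 and 28.5 CPM (reads scaled to a common library total) at 0 h in Control, against 22.6 and 23.2 in Mettl3 cKO (log2 difference -0.43, adjusted p = 0.00125), and at 6 h it was higher in Mettl3 cKO (log2 0.60). The Control libraries at 6 h stood apart from the other 10. They held 20246 and 16565 reads of Xist, which female cells transcribe, against at most 6 elsewhere, and 0 and 1 reads of the Y-linked Ddx3y against 2440 to 3210 elsewhere. Every comparison that uses them therefore also compares cells of different sex markers, which cannot be told apart from time or genotype, and no value without them can be had for Control at 6 h. Hepatocyte markers were abundant in every library (7 genes, 47301 to 103216 CPM summed), and Alb made up most of each sum.

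Levels are CPM of the library's total, and differences are on the log2 scale with their standard error from edgeR's quasi-likelihood fit over all 12 libraries. A gene is called where its p, adjusted by Benjamini and Hochberg over the 14488 genes tested, is under 0.05. In bulk RNA, fewer cells of a type and less RNA per cell cannot be told apart. After the block, values relative to the library total show which RNAs were retained better or worse than the bulk of RNA, not absolute amounts.

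The P450 genes together took a small share of the RNA, and less of it in Mettl3 cKO. Summed over the 88 genes, Control libraries held 1511 and 1604 CPM at 0 h, 2052 and 2073 at 2 h, and 2467 and 2544 at 6 h. Mettl3 cKO libraries held 1047 and 1025, then 1382 and 1303, then 1586 and 1591. At each time both Mettl3 cKO libraries lay below both Control libraries, and in both genotypes the sum was higher at each later time.

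**Figure D1:**
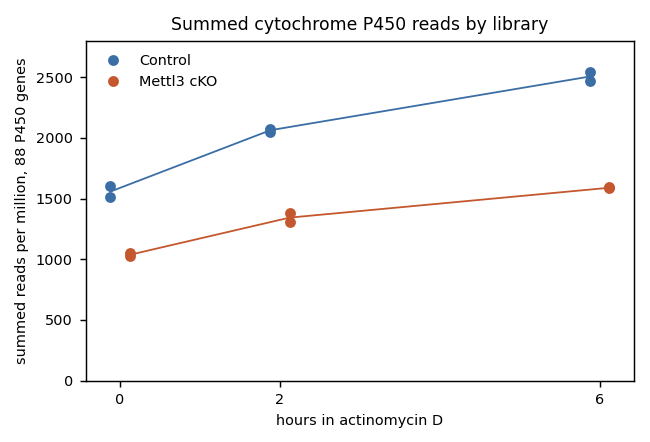
Summed CPM of the 88 P450 genes (vertical axis from 0) against hours in actinomycin D, 1 point per library, lines through the means of the 2 libraries. Control (blue) lay at 1511 to 2544 and Mettl3 cKO (orange) at 1025 to 1591, with no overlap at any time.

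Per kilobase of annotated exon, a scale on which genes can be set side by side, the most abundant P450 in Control at 0 h was Cyp2d26 at 112.6 RPKM (CPM divided by exon length in kilobases), followed by Cyp2e1, the enzyme of ethanol and acetaminophen oxidation, at 68.9. Cyp3a13 stood at 56.3, Cyp2c68 at 47.7, Cyp2d10 at 47.5 and Cyp2a12, a steroid hydroxylase, at 29.9. In Mettl3 cKO at 0 h the order was different: Cyp2e1 came first at 82.0, then Cyp2c68 at 42.5, Cyp2d26 at 34.2, Cyp4f16 at 28.1 and Cyp3a13 at 27.2. Cyp2c68 and Cyp2d10 in Control did not differ beyond the spread of their libraries. The family spanned more than 3 orders of magnitude, down to Cyp26b1, which breaks down retinoic acid, at a mean of 0.0325 over the 12 libraries.

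**Figure D2:**
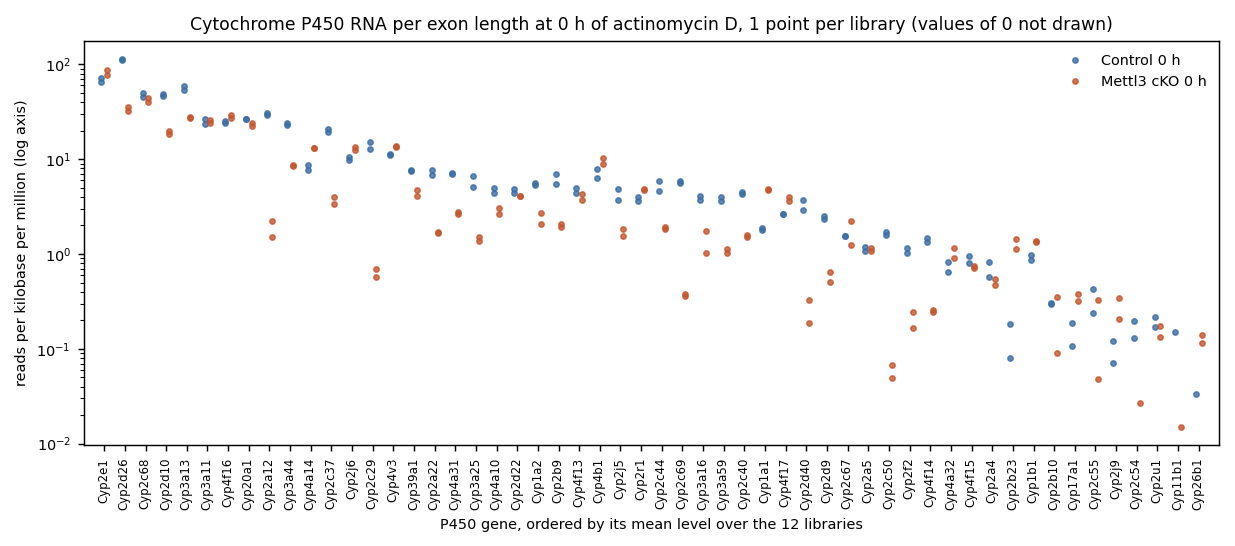
Level of each of the 54 P450 genes at 0 h in RPKM (log axis), ordered by the mean over all 12 libraries, 1 point per library, Control blue and Mettl3 cKO orange. Cyp2a12, Cyp2c29, Cyp2c69, Cyp2d40 and Cyp2c50 sit far lower in Mettl3 cKO, while Cyp2e1, Cyp3a11 and Cyp20a1 lie close together.

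Many of these genes are tandem copies: 11 of the 54 lie on chromosome 19, 10 on chromosome 7, 8 on chromosome 4, 7 on chromosome 17, and 6 each on chromosomes 5 and 15. Near-identical copies can share reads. Of the 54, 22 had at least 1 stretch of 150 bases, the read length, in common with a transcript of another gene. The share of such stretches was over 10% for 3 genes: 29.1% for Cyp2c40, 22.5% for Cyp2c69 and 13.0% for Cyp2c67, so their counts are uncertain. Exons of 9 genes overlapped those of another gene, such as Cyp2f2 with the antisense gene Gm15883 over 274 bases, and the library kit did not mark strand.

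Promoters are shown in full for Cyp2a12, Cyp2c29 and Cyp1a1, as examples and not as the genes with the largest difference in each direction. Members of one subfamily carry related elements near their start sites, which the next paragraph gives. Of the 54 genes, 43 matched a promoter entry from RefSeq (GRCm38.p6), taken from 250 bases before to 50 after the start. Cyp2a12, the steroid hydroxylase gene on chromosome 7 that stood about 16-fold lower in Mettl3 cKO (15.8-fold at 0 h), lies at chr7:27029081-27037375 on the plus strand, and its promoter window is chr7:27028840-27029139. Cyp2c29, a retinoid and drug oxidase gene at chr19:39269405-39330713 on the plus strand, has its window at chr19:39286835-39287134. Cyp1a1, the classical target of the aryl hydrocarbon receptor, lies at chr9:57687928-57703824 on the plus strand, has its window at chr9:57697363-57697662, and moved the other way. The RefSeq starts of Cyp2c29 and Cyp1a1 lie inside these longer annotated gene spans. Capitals mark TATAAA and, in Cyp2a12, the letters CAAAGNNCA, part of the sequence bound by the liver factor HNF4.
Cyp2a12: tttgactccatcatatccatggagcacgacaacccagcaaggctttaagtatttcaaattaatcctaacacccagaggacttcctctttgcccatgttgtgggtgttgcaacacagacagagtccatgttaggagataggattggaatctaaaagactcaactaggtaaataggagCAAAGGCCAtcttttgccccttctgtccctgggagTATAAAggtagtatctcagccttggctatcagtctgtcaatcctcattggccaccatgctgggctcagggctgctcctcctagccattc
Cyp2c29: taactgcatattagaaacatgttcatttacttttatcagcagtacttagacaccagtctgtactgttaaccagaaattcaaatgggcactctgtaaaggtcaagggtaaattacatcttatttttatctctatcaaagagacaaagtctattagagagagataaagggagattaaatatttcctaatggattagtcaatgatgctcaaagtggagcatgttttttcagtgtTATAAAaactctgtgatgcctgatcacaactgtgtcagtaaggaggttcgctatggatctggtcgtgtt
Cyp1a1: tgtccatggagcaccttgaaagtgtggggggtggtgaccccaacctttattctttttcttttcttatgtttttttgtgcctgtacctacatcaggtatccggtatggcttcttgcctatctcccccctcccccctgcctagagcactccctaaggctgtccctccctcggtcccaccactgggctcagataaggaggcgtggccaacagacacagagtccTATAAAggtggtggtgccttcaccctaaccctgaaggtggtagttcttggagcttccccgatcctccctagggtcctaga

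The letters CAAAGNNCA, searched on both strands, occurred in 18 of the 43 promoters (41.9%), against 6.37% of the promoters of 27025 genes. They were present in 15 of the 23 members that were lower in Mettl3 cKO at 0 h, in 1 of the 11 that were higher and in 2 of the 9 that were not called. The matches followed subfamilies: 4 of 4 Cyp2d, 6 of 8 Cyp2c, 5 of 6 Cyp3a and 2 of 4 Cyp2a promoters held one, and 0 of 3 Cyp2b, 0 of 4 Cyp4f and 0 of 3 Cyp2j. Genes of a subfamily are related copies, so the promoters are not independent of each other. Cyp2c29 held no match in its window although it was among the most reduced. TATAAA occurred in 22 of the 43, or 51.2%, against 14.2% of all promoters. It was present in 13 of the 23 lower members, in 3 of the 11 higher and in 6 of the 9 not called. Other letters were searched in the 47 promoter entries of these genes, some genes having more than 1. TTGCNNAA, of the C/EBP factors, was in 17 (36.2%), against 10.8% of 32851 entries. GTTAATNAT, of HNF1, was in 1 (2.13% against 0.80%), and TNGCGTG, of the aryl hydrocarbon receptor, in 1 (2.13% against 5.07%). These were not split by call. The match, 1 per promoter, is given here in capitals with 16 bases on either side, read along the gene, for members that were lower at 0 h and, last, for Cyp3a11, which was not. Cyp2a12 and Cyp2a22 read the same up to the end of the capitals. A match is a description of the letters, not a shown binding site.
Cyp2a12: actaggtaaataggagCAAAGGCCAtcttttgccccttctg
Cyp2a22: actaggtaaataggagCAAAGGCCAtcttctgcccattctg
Cyp2c37: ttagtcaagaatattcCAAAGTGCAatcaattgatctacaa
Cyp2c50: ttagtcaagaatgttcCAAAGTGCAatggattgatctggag
Cyp2c69: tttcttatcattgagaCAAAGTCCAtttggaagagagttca
Cyp2d9: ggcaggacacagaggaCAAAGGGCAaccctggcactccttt
Cyp2d26: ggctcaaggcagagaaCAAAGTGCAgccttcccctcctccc
Cyp2d40: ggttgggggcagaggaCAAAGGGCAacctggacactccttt
Cyp3a25: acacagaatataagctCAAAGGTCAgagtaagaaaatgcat
Cyp3a11: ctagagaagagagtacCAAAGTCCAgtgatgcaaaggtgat
These stretches lie at chr7:27029000-27029040 (Cyp2a12, plus strand), chr7:26939425-26939465 (Cyp2a22, minus strand), chr19:39992345-39992385 (Cyp2c37, plus strand), chr19:40089602-40089642 (Cyp2c50, plus strand), chr19:39886820-39886860 (Cyp2c69, minus strand), chr15:82452311-82452351 (Cyp2d9, plus strand), chr15:82794279-82794319 (Cyp2d26, minus strand), chr15:82764211-82764251 (Cyp2d40, minus strand), chr5:146009773-146009813 (Cyp3a25, minus strand) and chr5:145879939-145879979 (Cyp3a11, minus strand).

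Before the block, P450 RNAs were mostly lower in Mettl3 cKO. Of 56 genes, 29 were lower and 14 higher at 0 h, against 22.5% lower and 31.9% higher among all genes tested. The median log2 difference over the 56 was -0.82, against 0.07 over all genes. With adjustment by trimmed mean of M-values (TMM) in place of column totals the counts were 30 and 12. The count of higher genes was 7 without Control replicate 1, 8 without Mettl3 cKO replicate 1, 10 without either of the other libraries, and 6 with DESeq2. Markers of other cells moved too. Of 7 macrophage markers 6 were higher, their sum going from 159 and 162 to 383 and 346 CPM. Of 8 stellate markers 3 were higher (189 to 195 against 278 to 296), and 4 of 7 endothelial markers were higher. The bile duct sum was lower (184 and 195 against 72.4 and 65.3). Spp1 made up most of its Control values and went from 106 and 114 in Control to 12.8 and 11.6 in Mettl3 cKO. Krt19 and the scarce Krt7 also lay below Control. Epcam lay above Control (10.7 and 11.8 against 13.7 and 13.98), and Sox9 overlapped. Of 7 hepatocyte markers, 2 were higher and 4 lower. The part of these shifts in the P450 differences was not tested.

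The lower group was led by drug and steroid hydroxylases of subfamilies 2A, 2C and 2D. Cyp2a12 had 101 and 106 CPM in Control against 7.79 and 5.27 in Mettl3 cKO, a log2 difference of -3.98 ± 0.12 (adjusted p = 1.7e-17). Cyp2c29 had 39.4 and 46.8 against 1.77 and 2.14 (-4.46 ± 0.13, adjusted p = 1.6e-17), which is 22.0-fold lower. Cyp2c50 had 4.60 and 4.94 against 0.143 and 0.199 (-4.75 ± 0.37, adjusted p = 2.7e-10). In all 3 genes the gap between genotypes was far larger than that between the 2 libraries of a genotype. The Cyp2c50 difference rests on 3 and 4 reads in Mettl3 cKO. Cyp2d26, the most abundant, went from 203 and 200 to 58.4 and 64.1 (-1.72 ± 0.06). Cyp2d40 went from 5.31 and 6.77 to 0.335 and 0.597 (-3.69 ± 0.30) and Cyp2c37 from 35.1 and 38.3 to 6.17 and 7.31 (-2.45 ± 0.11). Cyp2f2, the naphthalene-activating enzyme of periportal hepatocytes and lung club cells, fell below 0.5 CPM in both Mettl3 cKO libraries from 2.36 and 2.07 (-2.40 ± 0.35), and Cyp4f14, which oxidises leukotriene B4 and vitamin K, differed by -2.47 ± 0.31.

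By subfamily, 8 of 10 Cyp2c genes tested were lower and none higher, with a median of -1.97. In Cyp2d 4 of 5 were lower, in Cyp3a 5 of 6, and in Cyp2a 2 of 4. The exceptions had close relatives that fell: Cyp2c68, at 78.7 and 85.8 against 69.8 and 76.9 CPM, differed by only -0.17 ± 0.06 (adjusted p = 0.034) and was not called without Control replicate 2 (-0.10) or Mettl3 cKO replicate 1 (-0.10). Cyp3a11, the main drug-metabolising 3A enzyme of the mouse, had 121 and 136 against 131 and 122 (-0.02 ± 0.06, adjusted p = 0.79), and the groups overlapped, while Cyp3a13, Cyp3a16, Cyp3a25, Cyp3a44 and Cyp3a59 differed by -1.05 to -2.01. The coumarin hydroxylase Cyp2a5 had 2.48 and 2.24 against 2.39 and 2.24 (-0.03 ± 0.26).

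**Figure D3:**
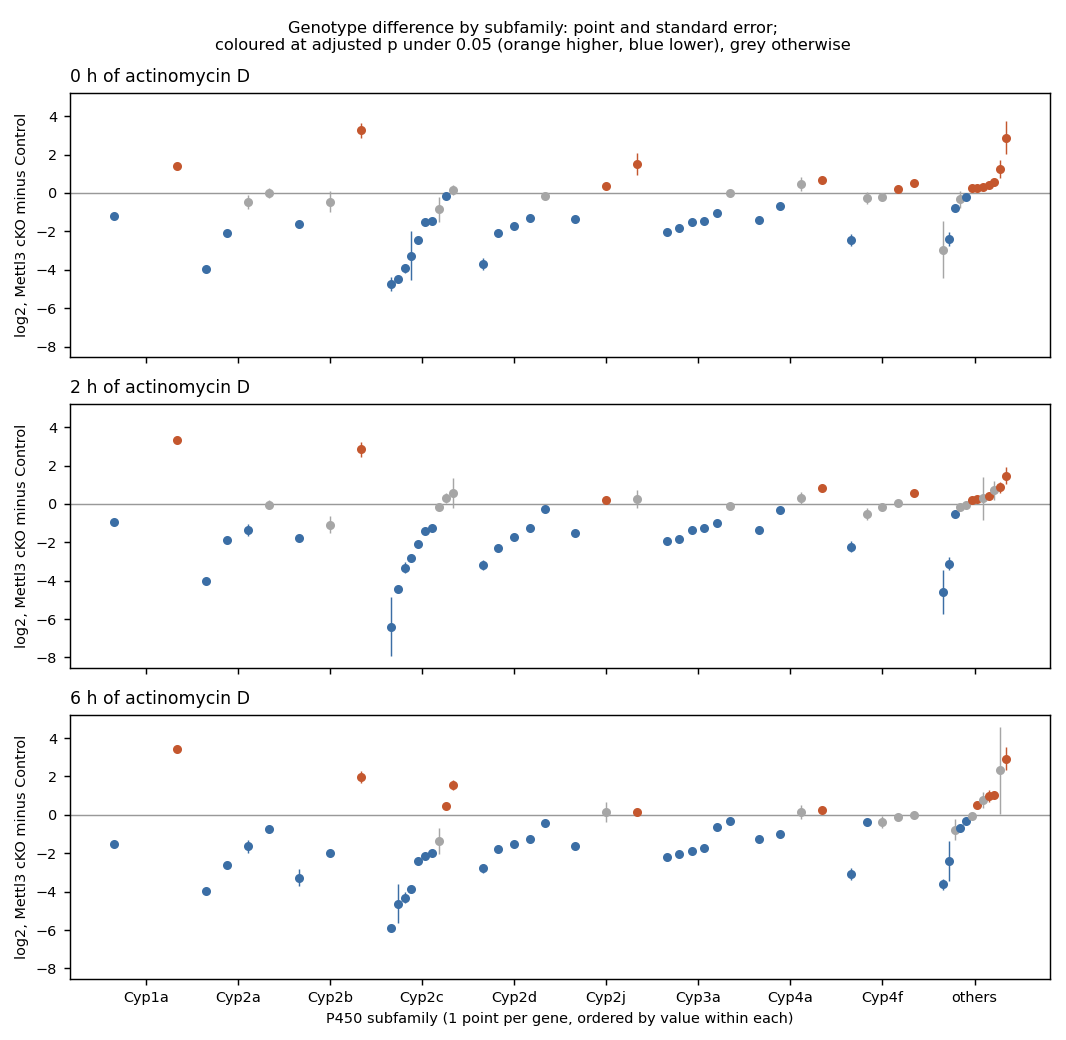
Log2 difference between Mettl3 cKO and Control for the 54 P450 genes at 0, 2 and 6 h, grouped by subfamily, with standard errors, orange where higher, blue where lower and grey where the adjusted p was 0.05 or more. Most of the Cyp2a, Cyp2c, Cyp2d and Cyp3a points lie below 0 at each time, and Cyp1a1 and Cyp2b23 stay above it.

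The genes that were higher were fewer and mostly less changed. Cyp2b23 had 0.177 and 0.402 CPM in Control and 2.49 and 3.18 in Mettl3 cKO (3.25 ± 0.41, adjusted p = 6.6e-07), resting on 3 and 7 reads in Control. Cyp1a1, which oxidises polycyclic aromatic hydrocarbons, had 5.01 and 5.22 against 13.6 and 13.3 (1.39 ± 0.14, adjusted p = 1.6e-08), with no overlap. Cyp4a14, a fatty acid hydroxylase under PPAR alpha, had 20.1 and 22.6 against 34.4 and 34.4 (0.69 ± 0.08, adjusted p = 2.0e-07). Cyp2e1 had 142 and 155 against 189 and 165 (0.25 ± 0.07, adjusted p = 0.0039), and was not called without Control replicate 1 (0.19), without Mettl3 cKO replicate 1 (0.15) or with DESeq2 (0.17). Cyp1b1, Cyp2r1, Cyp4b1 and Cyp4f16 were also higher, by 0.19 to 0.57, and each lost its call without 2 or more single libraries, Cyp4b1 falling to 0.28 without Control replicate 1 and Cyp1b1 lying between 0.49 and 0.65. Cyp17a1, the steroid 17-hydroxylase, was higher at 1.25 ± 0.47 from 0.295 and 0.517 to 1.05 and 0.895, but not with DESeq2.

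Sorted by the receptors that induce them, the P450 genes did not move as blocks. Of 3 genes induced through the aryl hydrocarbon receptor, Cyp1a1 and Cyp1b1 were higher while Cyp1a2, the caffeine demethylase of pericentral hepatocytes, was lower (10.7 and 11.3 against 5.40 and 4.18, -1.20 ± 0.15). Cyp1a1 and Cyp1a2 are neighbours on chromosome 9. Of 6 genes under the receptors CAR and PXR, 3 were lower and 3 were not called, Cyp2b10 standing at 0.649 and 0.631 against 0.191 and 0.746. Of 4 genes under PPAR alpha, Cyp4a14 was higher, Cyp4a10 (-0.70 ± 0.15) and Cyp4a31 (-1.39 ± 0.12) were lower, and Cyp4a32 was not called. Of 8 pericentral genes, 5 were lower and 1, Cyp2e1, was higher. Among the 56 P450 genes 51.8% were lower and 25% higher, and among all genes 22.5% and 31.9%. The shares lower in the CAR and PXR group and the pericentral group were thus near that of the P450 genes as a whole.

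Genes that are female-biased in adult mouse liver included 12 members, of which 7 were lower and 2 higher at 0 h, where all 4 libraries held Ddx3y and at most 6 reads of Xist. Cyp2b9 had 13.2 and 10.3 against 3.87 and 3.63 CPM (-1.64 ± 0.16) and Cyp3a44 had 44.8 and 47.5 against 17.1 and 16.6 (-1.46 ± 0.08). Of 3 male-biased genes tested, Cyp2d9 (-2.06 ± 0.21) and Cyp4f14 were lower. Of the 56 P450 genes as a whole 51.8% were lower and 25% higher, so the share of female-biased genes that was lower was near theirs. Among all genes 22.5% were lower and 31.9% higher. The estrogen receptor Esr1 was lower as well, from 3.01 and 4.19 to 0.765 and 0.647 (-2.34 ± 0.34).

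Of 16 transcription factors of P450 genes tested, 6 were higher and 3 lower at 0 h, shares close to the 31.9% and 22.5% of all genes. The aryl hydrocarbon receptor gene Ahr rose from 31.6 and 37.1 in Control to 53.9 and 57.2 in Mettl3 cKO (0.69 ± 0.08, adjusted p = 3.9e-07), and its target Tiparp, which restrains the receptor, from 64.5 and 69.7 to 128 and 134 (0.96 ± 0.07). Hnf4a was lower, at 37.2 and 31.9 against 44.5 and 43.0 (-0.34 ± 0.09, adjusted p = 0.0039). Nr1i3, which encodes CAR, was not tested, with at most 9 reads in any library, and Nr1i2, which encodes PXR, was not called at 0 h (0.36 ± 0.25) or later.

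P450 enzymes need electrons and heme. Of 8 genes of electron donors 5 were lower and 2 higher at 0 h, beside 22.5% and 31.9% of all genes. Por, the reductase that supplies the microsomal P450s, had 332 and 328 CPM in Control and 257 and 248 in Mettl3 cKO (-0.38 ± 0.06, adjusted p = 1.2e-05). Cyb5a, cytochrome b5, was lower by 0.62 ± 0.06 on the log2 scale. Of 12 genes of heme synthesis and breakdown 3 were higher, a share near that of all genes, and 5 lower. Alas1, the rate-limiting enzyme, differed by -0.19 ± 0.06 (adjusted p = 0.008).

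After 2 h of actinomycin D the difference between genotypes was of similar extent. Of 56 genes 29 were lower and 10 higher, against 21.3% and 37.8% of all genes, with a median of -0.73 against 0.15. The count of higher genes went to 4 without Mettl3 cKO replicate 1. At 6 h, 35 were lower and 10 higher, against 19.8% and 46.4% of all genes, with a median of -1.15 against 0.32. Under TMM the counts were 35 and 7 at 2 h and 38 and 8 at 6 h, where TMM moved the median of all genes by -0.12 and -0.29. Macrophage markers were higher in Mettl3 cKO for 7 of 7 genes at both times, with sums of 409 and 394 against 193 and 214 at 2 h and 267 and 245 against 86.7 and 106 at 6 h. Stellate markers were higher for 2 of 8 genes at 2 h and 7 of 8 at 6 h, and endothelial markers for 1 of 7 and 5 of 7, with their sum down to 13.8 and 12.2 in the Control libraries at 6 h, against 42.8 and 36.4 for Mettl3 cKO. Bile duct sums were lower in Mettl3 cKO, at 54.3 and 52.9 against 209.7 and 217 at 2 h and 51.2 and 53.8 against 307 and 330 at 6 h. Spp1 made up most of the Control sums, with 148 and 157 CPM at 2 h and 235 and 248 at 6 h. Krt19 was also lower in Mettl3 cKO at both times. Epcam lay above Control at 2 h (18.4 and 17.3 against 21.2 and 21.6) and overlapped at 6 h. Sox9 was below Control at 2 h and above it at 6 h (1.78 and 2.21 against 4.17 and 4.68). Hepatocyte sums were 62445 and 62423 against 68997 and 70682 at 2 h, and 63559 and 63591 against 95325 and 103216 at 6 h. Alb made up most of these sums, with 51391 and 51644 against 87940 and 95152 CPM at 6 h. Of the 7 genes, 4 and then 5 were lower, the same direction as most P450 genes, and 2 were higher at both times. Apoa1 and Fgb lay above Control at both times, Apoa1 with 8645 and 8457 against 3281 and 3694 at 6 h. The part of these shifts was not tested.

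Over the 3 times, 26 of the 56 genes were lower in Mettl3 cKO at each of them, 7 were higher at each and 4 were never called. The share of all genes called at each of the 3 times was not worked out. At the single times 19.8% to 22.5% of all genes were lower and 31.9% to 46.4% higher. The 26 covered the main drug-metabolising subfamilies, among them 7 Cyp2c, 4 Cyp2d and 5 Cyp3a genes. Only Cyp2c68 was called in both directions, lower at 0 h as given above and higher at 6 h (96.1 and 96.9 against 129 and 135, 0.45 ± 0.06), though not with DESeq2 at 6 h (0.10). Cyp2a12 differed by -4.01 ± 0.11 at 2 h and -3.96 ± 0.10 at 6 h, so its gap stayed near 16-fold throughout. Cyp2c29 differed by -4.43 ± 0.12 at 2 h and -5.89 ± 0.12 at 6 h, where Control held 132 and 133 CPM and Mettl3 cKO 2.06 and 2.42. Of the 7 higher ones, Cyp2j6 and Cyp4a14 were only slightly so at 6 h (0.17 ± 0.07 and 0.26 ± 0.07) and both changed sign under TMM (-0.12 and -0.03).

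Some of the lower genes had almost no reads left. Cyp2c54 had 6 and 4 reads in Control at 0 h and 1 and 0 in Mettl3 cKO, then 16 and 4 against 0 and 0 at 2 h, and 18 and 15 against 1 and 0 at 6 h. It was called at each time, but not at 0 or 2 h in a fit without the 6 h libraries. Cyp2c50, also on chromosome 19, shares 2.99% of the read-length stretches of Cyp2c54. Cyp2c50 stood at 7.13 and 6.39 CPM against 0.599 and 0.750 at 2 h (-3.31 ± 0.27) and 7.73 and 9.38 against 0.264 and 0.579 at 6 h (-4.32 ± 0.28). Cyp2f2 differed by -3.11 ± 0.34 and then -3.61 ± 0.29. Cyp2b10 was not called at 0 or 2 h and was lower by 3.28 on the log2 scale at 6 h, with 2.5 and 3.76 against 0.369 and 0.263 (adjusted p = 1.1e-06). At 6 h the CAR and PXR group had 5 of 6 genes lower, Cyp3a11 among them at 292 and 301 against 235 and 242 (-0.31 ± 0.06). Of the 56 P450 genes 62.5% were lower at that time, and of all genes 19.8%.

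The time course within each genotype asks which P450 RNAs were held and which were lost once transcription stopped. In Control, 28 of 56 were higher at 2 h than at 0 h and 3 lower, against 12.9% and 36.3% of all genes, with a median of 0.38 against -0.15. In Mettl3 cKO 23 were higher and 3 lower, against 12% and 29.2%, with a median of 0.35 against -0.08. Endothelial marker sums fell over the same interval, from 210 and 221 to 141 and 137 in Control and from 270 and 243 to 155 and 121 in Mettl3 cKO, and hepatocyte marker sums were higher, from 51276 and 52570 to 68997 and 70682 in Control. Under TMM, which moved the median of all genes by 0.17 in Control and 0.09 in Mettl3 cKO, 38 and 31 P450 genes were higher.

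Among the abundant ones, Cyp3a11 in Control went from 121 and 136 at 0 h to 205 and 199 at 2 h (0.65 ± 0.06, adjusted p = 6.1e-09), and in Mettl3 cKO from 131 and 122 to 198 and 182 (0.59 ± 0.06). Cyp2d26 in Control went from 203 and 200 to 300 and 306 (0.59 ± 0.06) and in Mettl3 cKO from 58.4 and 64.1 to 93.6 and 90 (0.58 ± 0.06). The tests of the difference between genotypes gave adjusted p = 0.73 for Cyp3a11, with a difference of -0.07 ± 0.09, and adjusted p = 1.0 for Cyp2d26, with a standard error of 0.09. From 2 to 6 h the change in Cyp2d26 did differ (0.44 ± 0.08, given below), though not with DESeq2. From 0 to 2 h its change was not detectably different with 2 libraries a group, while its level was much lower in Mettl3 cKO. Cyp2a12 was the same in this respect, with 0.43 ± 0.08 in Control and 0.40 ± 0.16 in Mettl3 cKO (difference -0.04 ± 0.18), although its call in Mettl3 cKO was lost without Mettl3 cKO 0 h replicate 2 (0.15) and without either 2 h library (0.34 and 0.46). Cyp2a4, a testosterone 15-hydroxylase, had the largest rise among those called in Control (1.21 ± 0.30, from 1.00 and 1.43 to 3.09 and 2.58).

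3 P450 RNAs fell in Control from 0 to 2 h: Cyp1a1, Cyp1b1 and Cyp4b1. Cyp1b1, an estradiol hydroxylase that is found mostly outside hepatocytes, went from 5.66 and 5.05 to 1.38 and 2.13 (-1.61 ± 0.28) and in Mettl3 cKO from 7.84 and 8.06 to 3.97 and 2.41 (-1.32 ± 0.23). Cyp4b1, a lung-type fatty acid and xenobiotic hydroxylase, went from 14.3 and 18.0 to 11.2 and 8.75 (-0.69 ± 0.16) and in Mettl3 cKO from 23.2 and 20.3 to 10.6 and 8.73 (-1.17 ± 0.15). Both went on falling to 6 h in both genotypes, to 0.192 and 0.10 for Cyp1b1 and to 0.961 and 1.35 for Cyp4b1 in Control. They were the 2 genes that were lower in both intervals in either genotype. In Mettl3 cKO the third gene that fell was Cyp26b1, from 13 and 15 reads to 4 and 1.

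Cyp1a1 was the gene whose change differed most clearly. In Control it went from 5.01 and 5.22 CPM at 0 h to 1.17 and 1.01 at 2 h (-2.22 ± 0.21, adjusted p = 8.1e-09) and stood at 1.39 and 1.40 at 6 h. In Mettl3 cKO it had 13.6 and 13.3, then 11.3 and 10.9 (-0.27 ± 0.12, adjusted p = 0.078), then 14.7 and 16.1. The change from 0 to 2 h differed between genotypes by 1.95 ± 0.25 (adjusted p = 4.2e-06), and the genotype difference in level went from 2.62-fold at 0 h to 10.1-fold at 2 h and 11-fold at 6 h. Ahr showed a difference in the same interval, falling by 2.09 in Control and by 1.08 in Mettl3 cKO on the log2 scale (difference 1.01 ± 0.14, adjusted p = 1.0e-05), and so did Tiparp (difference 1.82 ± 0.11, adjusted p = 4.4e-11), which at 2 h had 11.9 and 11.6 CPM in Control and 79.7 and 82.3 in Mettl3 cKO. Arnt, the partner of Ahr, had no such difference (-0.07 ± 0.11, adjusted p = 0.80). Among all genes, 12.5% had a difference called upwards in this interval and 1.29% downwards. Nfe2l2 went from 101 and 106 CPM to 26.7 and 21.7 in Control. In Mettl3 cKO it went from 154 and 138 to 77.3 and 71.8. Cyp1b1, also induced through the aryl hydrocarbon receptor, had no difference called. The part of Ahr in the Cyp1a1 change was not tested.

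**Figure D4:**
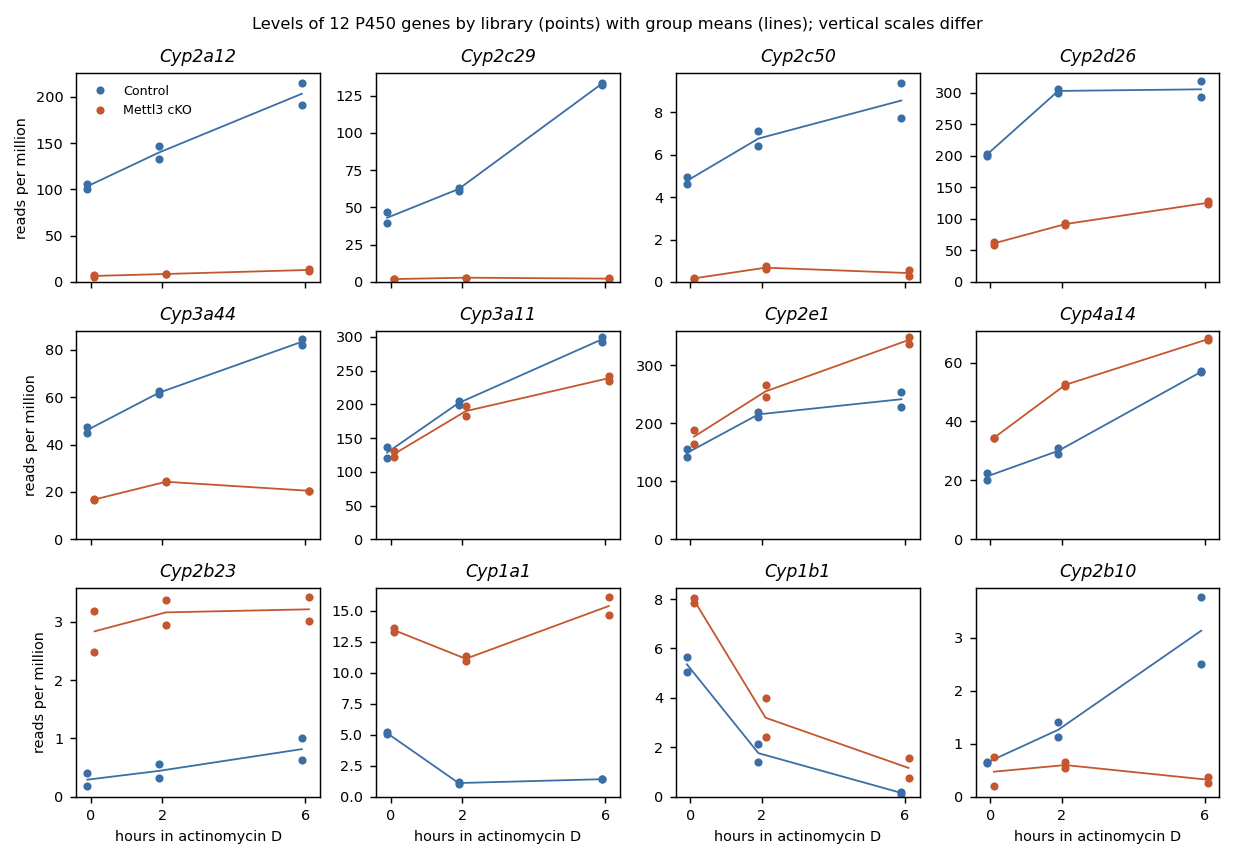
CPM (vertical axes from 0, scales differ) against hours in actinomycin D for 12 P450 genes, points are single libraries and lines join the means of Control (blue) and Mettl3 cKO (orange). Cyp2a12 and Cyp2c29 stay at 14.1 or less in Mettl3 cKO, Cyp3a11 overlaps at 0 h, and Cyp1a1 falls from about 5 to 1 in Control by 2 h while it stays at 10.9 or more in Mettl3 cKO.

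Over all 56 genes, the change from 0 to 2 h differed between genotypes for 2 genes, both upwards, against 12.5% of all genes upwards and 1.29% downwards. The other was Cyp2c69, which in Control went from 9.5 and 9.99 to 13.0 and 13.7 (0.45 ± 0.15) and in Mettl3 cKO from 0.622 and 0.647 to 1.52 and 2.30 (1.59 ± 0.33). Its difference of 1.13 ± 0.37 had an adjusted p of 0.041 and was called without Mettl3 cKO 2 h replicate 1 but not without any other 1 of the 8 libraries (0.80 to 1.17), nor under TMM (1.05) or DESeq2 (1.09), and this gene shares 22.5% of its read-length stretches with Cyp2c40 and Cyp2c67. No P450 gene had a difference called downwards by edgeR or DESeq2, and 1 had an unadjusted p under 0.05 in that direction with edgeR.

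From 2 to 6 h, 21 of 56 genes were higher and 5 lower in Control, against 9.83% and 48.4% of all genes, and in Mettl3 cKO 11 were higher and 7 lower, against 8.24% and 33.0%. The 7 lower ones in Mettl3 cKO were 3 without 6 h replicate 1 and 4 without 6 h replicate 2 or 2 h replicate 2. These counts depended on the scaling. Under TMM, which raised the median of all genes by 0.33 in Control and 0.16 in Mettl3 cKO, they were 36 and 2 in Control, against 27.3% and 31.9% of all genes, and 19 and 4 in Mettl3 cKO, against 20.5% and 21.7%. The Control libraries at 6 h carry the Xist reads given above. In the same interval 6 of 7 macrophage and 6 of 7 endothelial markers fell in Control and 6 and 7 of them in Mettl3 cKO. The part of this loss in the P450 shares was not tested.

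In Control, Cyp2c29 went from 63.4 and 61.4 at 2 h to 132 and 133 at 6 h (1.09 ± 0.07, adjusted p = 2.3e-11). Cyp2a22 went from 33.2 and 32.2 to 59.3 and 65.9 (0.94 ± 0.08) and Cyp4a14 from 31.0 and 29.0 to 57.1 and 56.7 (0.92 ± 0.07). Cyp2b10, the main target of CAR, went from 1.12 and 1.40 to 2.5 and 3.76 (1.31 ± 0.35, adjusted p = 0.0028), and was not called without Control 6 h replicate 2 (0.99). Cyp2b10 and Cyp4a14 are female-biased in adult mouse liver. Of the 12 female-biased genes 4 were higher in Control at 6 h than at 2 h and none lower, beside 9.83% of all genes higher (7 under TMM, beside 27.3%), and of the 3 male-biased genes tested none was called (1 higher under TMM). The share of the 12 that was higher in Control was not above that of the 56 P450 genes, 37.5% (64.3% under TMM). In Mettl3 cKO, whose libraries held Ddx3y at each time, 1 female-biased gene was higher and 3 were lower. Of all genes, 8.24% were higher and 33.0% lower there. Under TMM the counts were 2 and 2, beside 20.5% and 21.7%. The part of sex in these counts was not tested.

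In Mettl3 cKO, Cyp3a25 rose most from 2 to 6 h among those with a mean of at least 1 CPM, from 5.55 and 4.71 to 8.18 and 9.16 (0.76 ± 0.17, beside 0.68 ± 0.12 in Control), followed by Cyp2a12 (0.59 ± 0.14, beside 0.54 ± 0.08), and Cyp1a1 went up by 0.47 ± 0.12. Cyp2d26 went from 93.6 and 90 to 123 and 128 (0.45 ± 0.06), while in Control it stayed at 293 and 318 after 300 and 306. Cyp2c29, at 2.89 and 2.89 and then 2.06 and 2.42, did not rise (-0.37 ± 0.20, adjusted p = 0.16). Cyp2c40 fell, from 4.57 and 3.80 to 2.37 and 2.47 (-0.79 ± 0.19, adjusted p = 0.0023).

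The change from 2 to 6 h differed between genotypes for 21 genes, 8 upwards and 13 downwards in Mettl3 cKO relative to Control, against 26.3% and 3.78% of all genes. Under TMM these were 4 and 19, against 17.5% and 11.2%. The 8 upward calls were 4 without Control 2 h replicate 2 or Mettl3 cKO 2 h replicate 2 and 5 without Mettl3 cKO 6 h replicate 2. The 13 downward calls were 7 without Mettl3 cKO 6 h replicate 1, and 8 without Control 2 h replicate 2, Mettl3 cKO 2 h replicate 1 or Mettl3 cKO 6 h replicate 2. Downwards, Cyp2c29 differed by -1.46 ± 0.22 (adjusted p = 1.5e-05), Cyp2a22 by -0.78 ± 0.14, Cyp3a44 by -0.68 ± 0.10 and Cyp4a14 by -0.55 ± 0.10. Cyp2b10 had the largest difference, -2.20 ± 0.70, and lost its call without any 1 of 4 of the 8 libraries (-1.88 to -2.06). Upwards, Cyp2c68 differed by 0.59 ± 0.09 (adjusted p = 1.4e-05) and Cyp2d26 by 0.44 ± 0.08, the latter not with DESeq2 (0.21), and Cyp2c67, which is rather scarce at 1.5 to 5.70 CPM, by 1.27 ± 0.37, not called without Control 2 h replicate 2 (1.06). All these differences rest on the Control 6 h libraries.

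Members with special substrates were mostly scarce. Of 6 steroid hormone synthesis genes 2 were tested, Cyp17a1 and Cyp11b1. Cyp11b1, the adrenal 11-hydroxylase, had 8 and 0 reads at 0 h in Control, against 1 and 0 in Mettl3 cKO. Cyp2r1, the vitamin D 25-hydroxylase, had 7.67 and 8.49 CPM at 0 h in Control, against 10.3 and 10.05 in Mettl3 cKO, and at 6 h 5.91 and 5.37 against 11.3 and 11.8 (1.03 ± 0.13, adjusted p = 4.1e-07). Cyp27b1, the 1-hydroxylase, was tested with at most 20 reads in a library, and Cyp24a1 had 4 at most. Cyp39a1, the 24-hydroxycholesterol hydroxylase, was lower in Mettl3 cKO at 0 h, with 23.4 and 22.9 against 14.5 and 12.5 (-0.78 ± 0.11, adjusted p = 1.6e-06), and also at 2 and 6 h.

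Among the arachidonic acid epoxygenases and related hydroxylases of family 2, Cyp2j5 and Cyp2c44 were lower in Mettl3 cKO at each time, and Cyp2j6 was higher by 0.36 ± 0.08 at 0 h. Cyp2j5 had 8.67 and 11.5 against 3.63 and 4.33 CPM at 0 h (-1.34 ± 0.16), and Cyp2c44 12.7 and 10.04 against 4.16 and 3.93 (-1.49 ± 0.15). Cyp20a1, an orphan P450 with no settled substrate, was among the steadiest, at 60.1 and 60.7 against 50.5 and 55.5 (-0.19 ± 0.07, adjusted p = 0.029), and was not called without Control replicate 1 or 2 or without Mettl3 cKO replicate 1 (-0.12 to -0.19). Cyp4v3, a fatty acid hydroxylase, had 42.8 and 42.6 against 51.1 and 52.3 at 0 h (0.28 ± 0.07).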

How the data were processed

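Per the labels and the study's methods, hepatocytes were isolated by collagenase perfusion, and poly(A) libraries, prepared without marking strand, were sequenced as pairs of 150 bases. The authors aligned reads with STAR 2.5.3a to mm10 and counted them per gene with featureCounts 2.0.1. The Gencode release was not given in the sources used here. The deposited values are whole read counts per gene, not normalized. Multi-copy P450 genes lose reads that align to more than 1 place, since only unique alignments were kept.

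Counts were analysed with edgeR 4.0.16 (R 4.3.3): quasi-likelihood fits of 6 group means over all 12 libraries, library sizes equal to column totals, filterByExpr with a minimum count of 10, and Benjamini-Hochberg adjustment over 14488 genes at 0.05. The 9 comparisons were genotype at each time, each interval within genotype, and the difference of the changes. Alternatives were TMM, DESeq2 1.42.0, no filter, only the libraries compared, a replicate block, a minimum log2 change of 1, each library left out, and, chosen after seeing the data, no 6 h libraries. On data simulated for 14212 genes and the genotype difference at 0 h, 76% of log2 changes of 0.5 and 94% of log2 changes of 1 were recovered, and 8 unchanged genes were called. The changed genes were drawn from those above 1 CPM in Control at 0 h, and all genes were given the same dispersion. These rates therefore do not cover the scarcer P450 genes.

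Values in every library were given for the 12 members with the highest mean, for up to 8 members in each direction of a comparison (6 for the differences in change) with the largest called difference and a mean of at least 1 CPM, and for up to 4 members of each list. Cyp2c54, Cyp2c68 at 0 h and the relatives of Cyp3a11 were named after their values were seen. The members and lists were chosen with earlier results of these data known. Replicates differed beyond sampling noise, so none was counted as a repeat. Positions and shared stretches came from Gencode M21 (GRCm38), in which 48058 of 48440 gene IDs were found without regard to version. Promoters came from RefSeq (GRCm38.p6). All columns of the table were used.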

Additional observations from a re-analysis of the deposited data

Results flagged for a closer look

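The following 14 differences were picked out because the change over an interval differed between Control and Mettl3 cKO in a test of the difference itself. They are the largest called, up to 6 in each direction of an interval, among members with a mean of at least 1 CPM. From 2 to 6 h 8 members were called upwards and 13 downwards, so the list does not hold all of them. From 0 to 2 h these were Cyp1a1 (log2 difference of the changes 1.95, higher in Mettl3 cKO) and Cyp2c69 (1.13). From 2 to 6 h the change was higher in Mettl3 cKO for Cyp1b1 (2.06), Cyp2c67 (1.27), Cyp4b1 (1.04), Cyp2r1 (0.60), Cyp2c68 (0.593) and Cyp2d26 (0.441). It was lower in Mettl3 cKO for Cyp2b10 (-2.20), Cyp2c29 (-1.46), Cyp2c69 (-1.07), Cyp2a22 (-0.778), Cyp2c44 (-0.698) and Cyp4a10 (-0.698). Of the calls from 2 to 6 h, Cyp4b1 was lost under TMM (0.86), DESeq2 (0.81) and without any 1 of 4 libraries (0.76 to 0.90), Cyp2r1 under TMM (0.43), DESeq2 (0.38) and without any 1 of 4 libraries (0.53 to 0.58), and Cyp2c67 under DESeq2 (1.05) and without Control 2 h replicate 2 (1.06). Cyp2d26 was lost under DESeq2 (0.21). Leaving out 1 library ended the call for Cyp1b1 (4 libraries, 1.41 to 1.74), Cyp2b10 (4 libraries, -1.88 to -2.06), Cyp2c44 (4 libraries, -0.62 to -0.67) and Cyp2c69 (Mettl3 cKO 2 h replicate 2 or 6 h replicate 1, -0.74 and -0.77). The Cyp2c69 call from 0 to 2 h was lost under TMM (1.05), DESeq2 (1.09) and without any 1 of 7 libraries (0.80 to 1.17). The 12 values from 2 to 6 h rest on the Control 6 h libraries, which alone carried Xist reads, and the part of that in the values was not tested.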

How the results depend on the processing

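Leaving out single libraries gave 7 to 10 higher and 25 to 30 lower P450 genes in Mettl3 cKO at 0 h, 4 to 10 and 27 to 29 at 2 h, and 8 to 9 and 33 to 34 at 6 h. From 0 to 2 h it gave 20 to 21 higher in Control and 18 to 20 in Mettl3 cKO, and from 2 to 6 h 16 to 19 higher and 4 to 5 lower in Control and 9 to 11 higher and 3 to 6 lower in Mettl3 cKO. The differences in change were 1 to 2 upwards from 0 to 2 h, and 4 to 8 upwards and 7 to 12 downwards from 2 to 6 h. With DESeq2, the genes higher in Mettl3 cKO were 6 at 0 h, 5 at 2 h and 5 at 6 h. With a log2 difference over 1 they were 5, 3 and 5, the genes higher from 0 to 2 h were 1 in Control and 2 in Mettl3 cKO, those from 2 to 6 h were 2 higher and 2 lower in Control and 0 higher and 3 lower in Mettl3 cKO, and the differences from 2 to 6 h were 3 upwards and 3 downwards. From 2 to 6 h in Control, TMM gave 36 higher and 2 lower and DESeq2 34 and 2. In Mettl3 cKO TMM gave 19 higher and 4 lower and DESeq2 4 lower. The upward differences were 1 with TMM and 1 with DESeq2 from 0 to 2 h, and 4 and 2 from 2 to 6 h. Directions turned for Cyp2j6 at 6 h (TMM -0.12, DESeq2 -0.18), Cyp4a14 at 6 h (TMM -0.032, DESeq2 -0.093) and Cyp3a13 from 2 to 6 h in Control (TMM 0.032, DESeq2 0.086). The cause was not tested. Without the 6 h libraries, the calls lost were Cyp2c54 at 0 h and at 2 h and Cyp3a16 from 0 to 2 h in Control, and those gained were Cyp20a1 at 2 h and Cyp4a10 from 0 to 2 h in Control.

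Deviations of libraries with the same replicate number correlated at -0.218 to 0.081 over 15 pairs of groups, so the numbers were not taken to pair the samples. With a replicate block the upward differences from 0 to 2 h were 1, without Cyp2c69, and the other counts of calls moved by at most 1. With 2 libraries a group, and reads under 10 in several members, small differences in scarce genes were not detectable.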
